A study of Homo sapiens with 9 samples.

Results

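The ETS family transcription factors described here are 10 genes: the ternary complex factors ELK1, ELK3 and ELK4, the PEA3 group ETV1, ETV4 and ETV5, the founding members ETS1 and ETS2, and the epithelial factors ELF3 and EHF. They are 10 of the 28 ETS genes of the human genome and of 18132 genes with a probe set of 1 symbol on these arrays. All 39 probe sets whose single symbol is a member were taken; a probe set is the group of short probes that reads 1 transcript or a group of them. The genes were chosen by name with earlier results of these arrays known, and ELK3 and ETV5 were selected on their falls in si-BAP1 cells. Their si-BAP1 values against control are therefore given as a description, with no test. So are their comparisons of si-BAP1 with si-MBD5, which use the same si-BAP1 arrays. Their comparisons of si-MBD5 with control, which use the same control arrays, are likewise given with no test. The other members' p-values come from the fit over all genes and, for the same reason, are no independent evidence.

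RNA came from HCCC-9810, a human cholangiocarcinoma cell line, in 3 groups of 3, which the design text calls biological replicates without saying how they were separated: cells given siRNAs against BAP1 (si-BAP1), cells given siRNAs against MBD5 (si-MBD5), and control cells. BAP1 is a nuclear deubiquitinase and MBD5 a methyl-CpG-binding domain protein. The control is named si-Control in the titles and a control shRNA in the other labels; it is called si-Control here. The p-values thus rest on the spread among samples of 1 line. All 9 samples are the same line, the sources used here give no siRNA sequence and no time after transfection, and the comparisons with control use the same 3 control arrays. In bulk RNA, fewer cells that express a gene and less of its RNA per cell cannot be told apart.

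ETS factors share a winged helix-turn-helix DNA-binding domain that reads a GGAA core. Ternary complex factors bind beside serum response factor (SRF) at immediate early genes and are activated by ERK phosphorylation; ELK3 is known as a repressor that such phosphorylation turns into an activator. PEA3 factors lie downstream of receptor and RAS-ERK signalling, are repressed by Capicua (CIC), and are marked for degradation by the ubiquitin ligase of COP1 and DET1. ETS1 and ETS2 are also ERK substrates and are known for activating protease genes, and ELF3 and EHF are largely restricted to epithelia.

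Promoters of the 3 ternary complex factors, which differed in direction on the arrays, and of ETV1 are shown. Each is the 250 bases before the gene's outermost RefSeq start (build GRCh38.p14), written 5′ to 3′ on the gene's own strand. Capitals mark CCGGAA on either strand, a high-affinity ETS motif.
ELK3 promoter, chr12:96194125-96194374, plus strand: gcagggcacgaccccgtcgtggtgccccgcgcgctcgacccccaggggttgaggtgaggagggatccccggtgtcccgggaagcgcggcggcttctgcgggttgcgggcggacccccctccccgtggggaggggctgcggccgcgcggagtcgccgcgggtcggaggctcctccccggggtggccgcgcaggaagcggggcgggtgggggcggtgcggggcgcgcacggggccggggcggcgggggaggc
ELK1 promoter, chrX:47650605-47650854, minus strand: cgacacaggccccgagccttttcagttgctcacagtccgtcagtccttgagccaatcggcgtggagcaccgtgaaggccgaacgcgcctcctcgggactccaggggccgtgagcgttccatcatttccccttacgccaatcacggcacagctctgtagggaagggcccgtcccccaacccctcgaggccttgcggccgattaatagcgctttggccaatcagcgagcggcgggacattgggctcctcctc
ELK4 promoter, chr1:205632012-205632261, minus strand: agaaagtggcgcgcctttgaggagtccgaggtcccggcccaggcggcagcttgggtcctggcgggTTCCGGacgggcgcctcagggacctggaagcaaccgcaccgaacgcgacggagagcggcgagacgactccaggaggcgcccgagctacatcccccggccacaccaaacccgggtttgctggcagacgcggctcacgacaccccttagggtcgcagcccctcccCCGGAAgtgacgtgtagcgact
ETV1 promoter, chr7:13991426-13991675, minus strand: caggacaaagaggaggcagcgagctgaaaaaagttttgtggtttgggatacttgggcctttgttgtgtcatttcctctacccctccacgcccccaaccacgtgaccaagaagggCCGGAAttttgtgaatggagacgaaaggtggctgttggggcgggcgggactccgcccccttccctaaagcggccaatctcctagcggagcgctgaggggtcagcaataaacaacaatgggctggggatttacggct
ELK4, whose signal rose in both knockdowns, has CCGGAA at 22 and 185 bases before its start, and ETV1, whose signal fell, has 1 at 136 bases. The ELK3 and ELK1 windows hold none. Of all 35116 promoter windows of this length, 14.5% hold the motif. The ELK3 window is 82.0% G and C, against a median of 58.0% over all windows. It holds 4 copies of the GC box GGGCGG, ETV1 has 3, and ELK1 and ELK4 have 0; 42.6% of all windows hold at least 1. The AP-1 motif TGANTCA and the CRE motif TGACGTCA were in none of the 6 member windows that could be matched (the 4 shown, ETS2 and ELF3), against 6.57% and 1.65% of all windows. ETV4, ETV5, ETS1 and EHF are not shown.

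Intensities below are the deposited values, on a linear scale. A log2 fold change is the difference of group means of log2(intensity + 16), so folds are smaller than the ratio of the intensities. Its standard error (SE) and p come from limma, with Benjamini-Hochberg adjustment over 12434 genes and a threshold of 0.05. A gene entered the fit if its brightest probe set averaged above 25.5, the 40th percentile of all probe sets; 9 members passed and EHF did not. No array of these 9 members was below that level on the brightest probe set, the lowest being 36.8. Array medians ran from 36.9 to 38.2. The targeted gene MBD5 gave little signal. On the brighter of its probe sets, at the 11.9th percentile, the arrays read 6.20, 6.20 and 6.11 in si-MBD5, against 7.16, 7.06 and 6.90 in si-Control (limma adjusted p = 0.308 with no filter). BAP1 was not analysed here, so neither knockdown was checked by a clear fall of its target. As a measure of RNA integrity, the ratio of 3′ to 5′ signal of ACTB averaged 11.1 ± 0.31 in si-BAP1, 12.3 ± 0.72 in si-MBD5 and 12.2 ± 0.52 in si-Control (SD, n = 3 each). On ACTB the 3 si-BAP1 arrays lay below the others. For GAPDH the same ratio averaged 1.08 in si-BAP1, 1.07 in si-MBD5 and 1.06 in si-Control, and the groups overlapped. The part of RNA integrity in the results was not tested.

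Leaving out ELK3 and ETV5, 2 of the 7 other members tested rose in si-BAP1 cells (ELK1 and ELK4) and 3 fell (ETV1, ETV4 and ETS1), where 23.5% of all genes passed in either direction. In si-MBD5 cells, set against the same control arrays, 2 of the same 7 rose (ELK1 and ELK4) and 3 fell (ETV1, ETV4 and ETS1), where 16.3% of all genes passed. The members were chosen with these comparisons known, so nothing is read from the counts. The plot of intensity by array shows the spread behind them. Groups whose arrays do not overlap, as told below for many members, were common. Over all genes they made up 37.5% in si-BAP1 against control, 30.4% in si-MBD5 against control and 25.0% between the knockdowns.

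**Figure D1:**
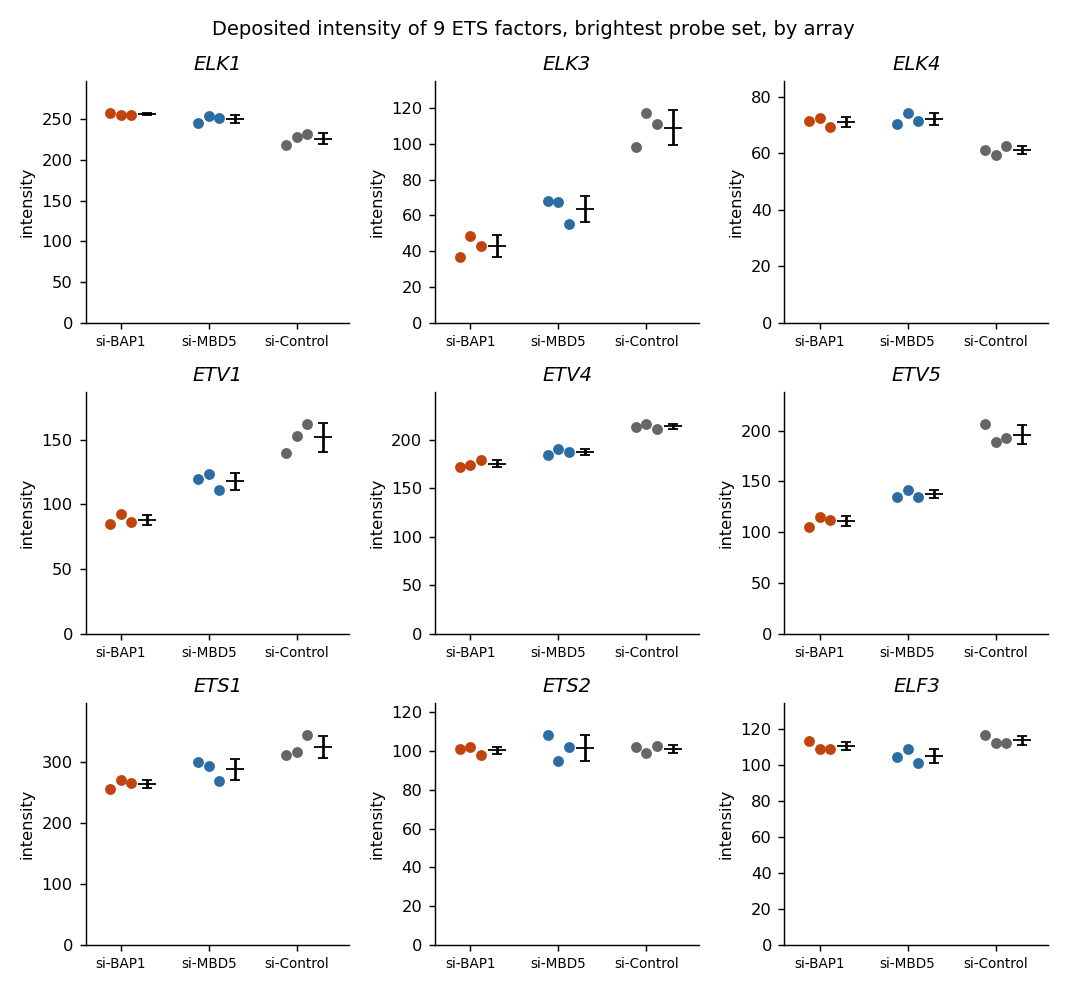
Deposited intensity (linear, each axis from 0) of the brightest probe set of 9 ETS genes, 1 point per array, in si-BAP1, si-MBD5 and si-Control cells; bars are mean ± SD of 3 arrays. ELK3, ETV1, ETV4 and ETV5 have si-BAP1 lowest and si-Control highest with no overlap, ELK1 and ELK4 are higher in both knockdowns, and ETS2 is level on this probe set.

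Among the ternary complex factors, ELK3 moved most. It read 36.8, 48.7 and 43.0 in si-BAP1 and 67.8, 67.3 and 55.1 in si-MBD5, against 98.2, 117 and 111 in si-Control. The 3 groups did not overlap in any array. Against control the difference was -1.09 on the log2 scale in si-BAP1 (SE 0.084, a 2.13-fold difference), the third largest fall of the 12434 genes. In si-MBD5 ELK3 fell by 0.65 (SE 0.084), the 12th largest fall. It was lower in si-BAP1 than in si-MBD5 by log2 -0.43 (SE 0.084). All of this rests on 1 probe set, 11759022_s_at, of the type whose probes can match several transcripts. The other ELK3 probe set, 11730254_at, stood at the 9.59th percentile and read 5.02 to 6.49 in si-BAP1, 5.02 to 6.46 in si-MBD5 and 5.90 to 7.45 in si-Control.

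ELK1, the factor that first defined the SRF ternary complex, went the other way. It read 258, 256 and 256 in si-BAP1 and 246, 255 and 252 in si-MBD5, against 219, 228 and 232 in si-Control. Every knockdown array was above every control array. The rise was log2 0.17 in si-BAP1 (SE 0.039, limma adjusted p = 0.0054) and 0.14 in si-MBD5 (SE 0.039, limma adjusted p = 0.025). The si-MBD5 call held in 7 of 8 other settings and in 5 of 9 fits that left out 1 array. It was lost without si-MBD5 replicate 2 or 3 and without si-Control replicate 1 or 2, the adjusted limma p reaching 0.0979 without si-Control replicate 1 (log2 0.12). Between the knockdowns ELK1 differed by log2 0.031, with a 95% interval of -0.053 to 0.12.

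ELK4, the third ternary complex factor, rose by about as much. Its values were 71.5, 72.5 and 69.3 in si-BAP1 and 70.5, 74.5 and 71.6 in si-MBD5, against 61.4, 59.6 and 62.6 in si-Control. The knockdown arrays overlapped each other and none overlapped a control array. The log2 rise was 0.18 in si-BAP1 (SE 0.044, limma adjusted p = 0.0100) and 0.19 in si-MBD5 (SE 0.044, limma adjusted p = 0.0087). Between the knockdowns the difference was -0.018, with a 95% interval of -0.11 to 0.077. Both ELK1 and ELK4 were read from 1 probe set each; their 5 dimmer probe sets (15.3rd to 39.3rd percentile) were below the filter.

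The 3 PEA3 factors were all lower in both knockdowns. ETV5 read 105, 115 and 112 in si-BAP1 and 135, 142 and 135 in si-MBD5, against 207, 189 and 192 in si-Control. The groups were fully separated, with si-BAP1 lowest. The difference from control was log2 -0.74 in si-BAP1 (SE 0.048, 1.67-fold). In si-MBD5 ETV5 fell by 0.47 (SE 0.048). The gap between the knockdowns was log2 -0.28 (SE 0.048). Without the _x_at and _s_at probe sets, where ETV5 is read from 11720351_a_at, that gap was log2 -0.14, and the arrays of the 2 knockdowns overlapped.

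ETV1 read 84.6, 92.3 and 86.6 in si-BAP1 and 119, 123 and 111 in si-MBD5, against 140.0, 153 and 163 in si-Control. Its groups were separated in the same order as those of ETV5. It fell by log2 0.69 in si-BAP1 (SE 0.057, limma adjusted p = 1.9e-06) and by 0.33 in si-MBD5 (SE 0.057, limma adjusted p = 0.0017). The knockdowns differed by log2 -0.37 (SE 0.057, limma adjusted p = 0.0012). The dimmer probe set 11733180_a_at read 29.3, 36.3 and 26.4 in si-BAP1 and 44.2, 55.98 and 44.2 in si-MBD5, against 45.8, 53.3 and 64.4 in si-Control. On it si-BAP1 also fell (log2 -0.59, limma adjusted p = 9.3e-04 over all probe sets), while si-MBD5 overlapped control (log2 -0.13, limma adjusted p = 0.457). The si-MBD5 call on ETV1 was also lost with the mean of its probe sets (log2 -0.23, limma adjusted p = 0.0526). The remaining 6 ETV1 probe sets were below the filter, at 4.14 to 16.8 in si-BAP1, 5.28 to 17.4 in si-MBD5 and 5.34 to 18.02 in si-Control.

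ETV4, the factor that gave the PEA3 group its name, changed least of the 3. It read 173, 174 and 179 in si-BAP1 and 184, 190.4 and 188 in si-MBD5, against 214, 217 and 212 in si-Control. The groups were again separated in the order si-BAP1, si-MBD5, si-Control. The fall was log2 0.27 in si-BAP1 (SE 0.039, limma adjusted p = 2.0e-04), and 0.18 in si-MBD5 (SE 0.039, limma adjusted p = 0.0067). The gap between knockdowns, log2 -0.088 (95% interval -0.17 to -0.0047), did not pass after adjustment (limma adjusted p = 0.188). With the mean of the ETV4 probe sets the si-MBD5 call was lost (log2 -0.11, limma adjusted p = 0.07) and the gap between knockdowns passed (log2 -0.13, limma adjusted p = 0.0365). On the dimmer probe set 11747996_a_at, si-BAP1 arrays at 76.2, 79.3 and 84.6 and si-MBD5 arrays at 90.0, 90.3 and 98.1 stood against si-Control at 99.8, 95.8 and 91.0. The si-BAP1 fall passed on it (log2 -0.22, limma adjusted p = 0.0098) and the si-MBD5 difference did not (log2 -0.036, limma adjusted p = 0.730).

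ETS1 read 257, 270.3 and 267 in si-BAP1 and 301, 295 and 269 in si-MBD5, against 313, 317 and 346 in si-Control. No knockdown array reached a control array, and the knockdowns overlapped. It fell by log2 0.28 in si-BAP1 (SE 0.051, limma adjusted p = 0.0011). In si-MBD5 the fall was 0.16 (SE 0.051, limma adjusted p = 0.0422), a call that held in 5 of 9 other settings and in 2 of 9 fits that left out 1 array, those without si-MBD5 replicate 1 or si-Control replicate 1. Without si-Control replicate 3 it was log2 -0.12 (limma adjusted p = 0.161). The dimmer probe set 11752387_a_at gave log2 -0.20 in si-BAP1 and -0.081 in si-MBD5, with overlapping arrays, and passed in neither (limma adjusted p = 0.114 and 0.596).

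The 2 ETS2 probe sets gave different answers. The brighter, 11742752_a_at, read 101, 102 and 98.0 in si-BAP1 and 108, 95.04 and 102 in si-MBD5, against 102, 98.9 and 103 in si-Control. These overlap fully, with log2 differences of -0.010 (95% interval -0.11 to 0.094) and 0.0067 (-0.098 to 0.11). The dimmer, 11758370_s_at, read 59.6, 62.3 and 62.3 in si-BAP1 and 61.5, 67.5 and 65.5 in si-MBD5, against 41.6, 42.6 and 45.5 in si-Control. On it every knockdown array exceeded every control array, by log2 0.39 in si-BAP1 (SE 0.048, limma adjusted p = 8.65e-05 over all probe sets) and 0.45 in si-MBD5 (SE 0.048, limma adjusted p = 7.1e-05). The log2 ratio of the dimmer to the brighter probe set within an array was -0.63 to -0.54 in si-BAP1, -0.68 to -0.41 in si-MBD5 and -1.03 to -0.95 in si-Control. That ratio was compared after its values were seen; the exact two-sided permutation p was 0.1 for each knockdown (n = 3 each), the smallest that 3 against 3 arrays allow. With the mean of its probe sets ETS2 passed as higher in both, at log2 0.19 and 0.23.

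ELF3, an epithelial ETS factor, did not pass on its brightest probe set. It read 113, 109 and 109 in si-BAP1 and 105, 109 and 101 in si-MBD5, against 117, 112 and 112 in si-Control. The si-MBD5 arrays lay below control, at log2 -0.10 (95% interval -0.19 to -0.0070, limma adjusted p = 0.144), and the si-BAP1 difference was -0.037 (-0.13 to 0.057, limma adjusted p = 0.623). With the mean of its probe sets ELF3 passed as lower in si-MBD5 (log2 -0.12, limma adjusted p = 0.0432). A dimmer ELF3 probe set, 11717595_s_at, passed in si-BAP1 (32.6, 30.9 and 28.4, against 36.9, 36.7 and 36.5 in si-Control; log2 -0.18, limma adjusted p = 0.0228). EHF, the other epithelial member, had 8 probe sets, all below the filter, between the 1.30th and 24.1st percentile. They read 2.43 to 15.7 in si-BAP1, 2.25 to 14.8 in si-MBD5 and 2.35 to 13.8 in si-Control. No EHF value stands clear of the low end of the arrays, so a change in it was not detectable here.

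Counted by probe set, 17 of the 39 were above the filter. Leaving out those of ELK3 and ETV5, 3 of 13 were called higher and 6 lower in si-BAP1 cells. In si-MBD5 cells 3 of the same 13 were called higher, and 1 each of ETV1 and ETV4 lower. Over all 29584 probe sets above the filter, 20.2% and 12.5% were called in these comparisons. No member had probe sets called in opposite directions. ETV5 is the member with the most above the filter in the PEA3 group: 11720351_a_at gave log2 -0.73 and -0.59 in si-BAP1 and si-MBD5, while 11748612_a_at gave -0.22 and -0.17. The plot of fold changes by probe set shows these gaps.

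**Figure D2:**
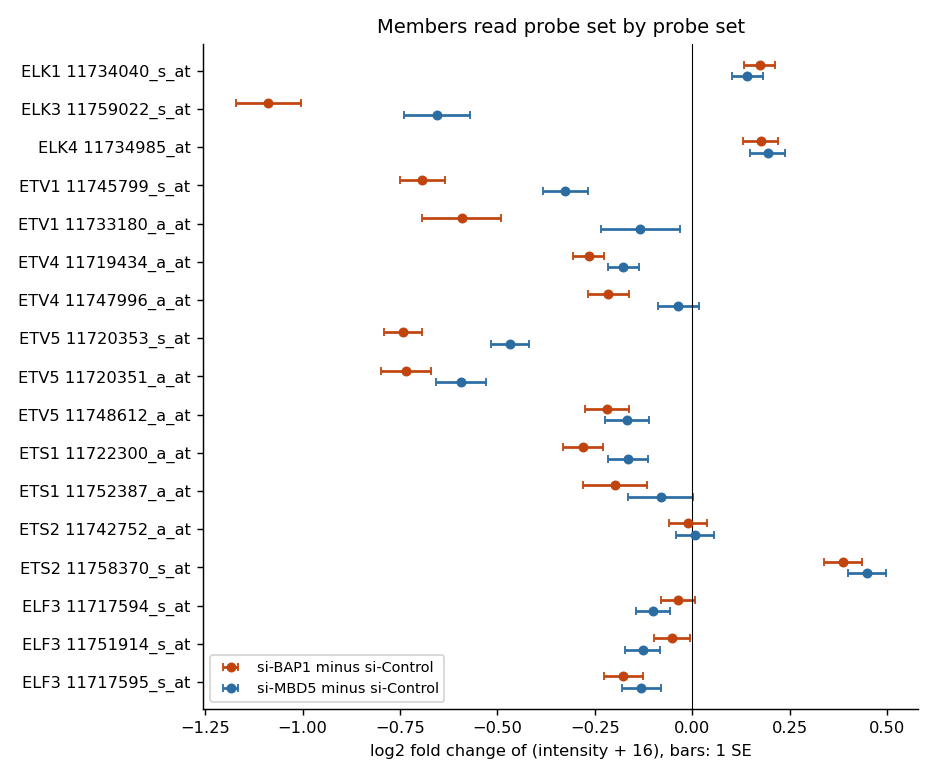
Log2 fold change of (intensity + 16) against si-Control for the 17 member probe sets above the filter, si-BAP1 in orange and si-MBD5 in blue; points are estimates from 3 arrays per group and bars 1 SE. The ELK3 probe set lies farthest left (-1.09 and -0.65), and the 2 ETS2 probe sets part (-0.010 and 0.39 in si-BAP1).

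Leaving out ELK3 and ETV5, the direct comparison of the knockdowns called 1 member, ETV1, lower in si-BAP1, where 9.97% of all genes passed. Nothing is read from this count. ELK3 and ETV5 were also lower in si-BAP1 and are given with no test. The other 6 tested members did not pass (limma adjusted p from 0.185 to 0.880), and with the mean of probe sets ETV4 did. ELK3 was the 43rd, ETV1 the 82nd and ETV5 the 195th lowest of 12434 genes in this comparison. On the scale with 16 added they were 1.35-fold, 1.29-fold and 1.21-fold lower in si-BAP1 than in si-MBD5.

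The 18 ETS genes that were not listed show the rest of the family. Of these, 13 had a probe set above the filter, and on the brightest 0 passed in limma in any of the 3 comparisons. Over all genes 23.5% passed in si-BAP1 against control, 16.3% in si-MBD5 against control and 9.97% between the knockdowns. At an unadjusted p under 0.05 there were 3 of the 13 in si-BAP1 against control, 1 in si-MBD5 against control and 2 between the knockdowns. ELF5, FLI1, SPI1, SPIB and SPIC, which are mostly factors of secretory epithelium, endothelium and blood, were below the filter. ETV7, a factor of blood and interferon responses, passed in si-BAP1 when its probe sets were averaged (log2 0.16, limma adjusted p = 0.0188). It was also called without _x_at and _s_at probe sets (log2 0.40), so the count was then 1. The second value is from 11761671_a_at, which passed the filter only through its si-BAP1 arrays and is given with no test. That probe set is also part of the average. So is 11762172_x_at, above the filter level in every group and called higher in si-BAP1 (log2 0.38, limma adjusted p = 0.0075 over all probe sets). Among the 13, the largest difference in si-BAP1 was that of ELF2, a broadly expressed ELF factor, at 157, 188 and 163 in si-BAP1, against 139, 142 and 159 in si-Control (log2 0.19, limma adjusted p = 0.0621). GABPA, a broadly expressed regulator of mitochondrial genes, had log2 0.18 in si-BAP1 and 0.14 in si-MBD5 (limma adjusted p = 0.132 and 0.248). ERF, a repressor that ERK phosphorylation expels from the nucleus, had -0.00067 and 0.0018. The median log2 fold change of the 13 was 0.0091 in si-BAP1 and 0.0081 in si-MBD5, beside -0.27 and -0.16 over the 9 members and 0.00047 and 0.000085 over all genes. The members were picked with results known and the others were not, so the gap between the lists was not tested.

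**Figure D3:**
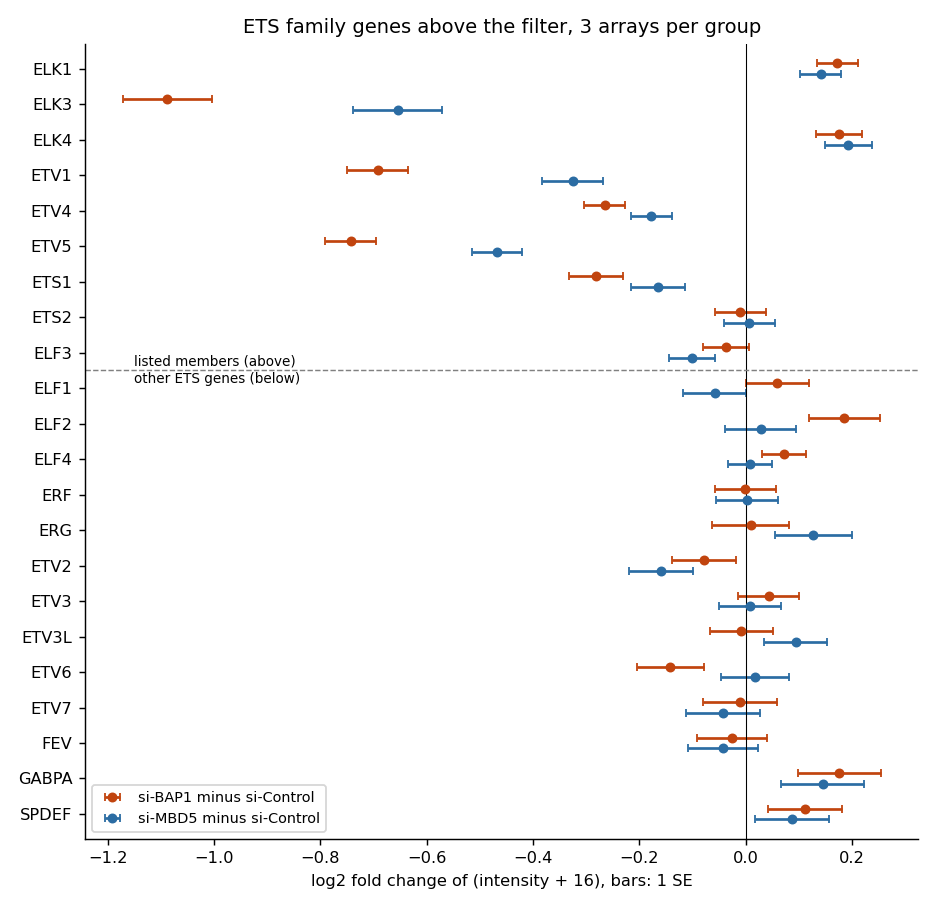
Log2 fold change of (intensity + 16) against si-Control for the 22 ETS genes above the filter, si-BAP1 in orange and si-MBD5 in blue; points are estimates from 3 arrays per group and bars 1 SE. Below the dashed line the 13 other ETS genes lie between -0.16 and 0.19, while ELK3, ETV1 and ETV5 reach -1.09, -0.69 and -0.74 in si-BAP1.

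Genes around the ETS factors were read from lists drawn up by function. The lists were chosen with earlier results of these data known, so nothing is read from their counts. The ERK feedback and output list, which holds the phosphatases and Sprouty-related inhibitors that ERK signalling induces, had 5 of 11 genes lower and 1 higher in si-BAP1, and 5 lower and 0 higher in si-MBD5. Over all genes 11.1% were lower and 12.4% higher in si-BAP1, and 8.99% lower and 7.29% higher in si-MBD5. Its median log2 fold change was -0.13 and -0.088. The Sproutys SPRY1 (log2 -0.014 and -0.081), SPRY2 (-0.13 and -0.088) and SPRY4 (-0.090 and -0.065) did not pass in either knockdown. Nor did SPRED3 and PHLDA1. The nuclear ERK phosphatase DUSP5 fell in both (log2 -0.34 and -0.49), as did DUSP4 (-0.26 and -0.34) and the RAS-ERK inhibitors SPRED1 (-0.30 and -0.22) and SPRED2 (-0.24 and -0.38). DUSP6, the cytoplasmic ERK phosphatase, read 63.6 in si-BAP1 and 80.8 in si-MBD5, against 86.8 in si-Control, as group means. It fell in si-BAP1 (log2 -0.37, limma adjusted p = 9.3e-04) and did not pass in si-MBD5 (-0.085, limma adjusted p = 0.443). The gap between the knockdowns passed, at log2 -0.29 (limma adjusted p = 0.0141). The gaps of DUSP5 (log2 0.15), SPRED2 (0.13) and DUSP4 (0.080) ran the other way and did not pass (limma adjusted p = 0.142, 0.124 and 0.261), and that of SPRED1 was -0.085 (limma adjusted p = 0.400). The cell cycle gene CCND1 rose in si-BAP1 (log2 0.17) and fell in si-MBD5 (log2 -0.32), and the knockdowns differed by log2 0.50 (limma adjusted p = 7.9e-06).

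Among CIC, its partners and the ubiquitin ligase of the PEA3 factors, 2 of 6 passed as higher in si-BAP1 and 1 in si-MBD5, where 12.4% and 7.29% of all genes were higher. With 6 genes these counts are not read as a difference from all genes. CUL4A, the cullin of that ligase, averaged 889.7 in si-BAP1 and 811 in si-MBD5, against 653 in si-Control (log2 0.44 and 0.31, limma adjusted p = 9.6e-07 and 5.2e-05). Its partner DDB1 rose by log2 0.13 in si-BAP1 (limma adjusted p = 0.0137). CIC itself had log2 -0.062 and -0.061, and COP1, the substrate-binding ligase subunit, 0.039 and -0.073; none of these passed. Of the RAS-ERK kinases, 5 of 10 were analysed here, and 0 passed in limma in si-BAP1 or si-MBD5 against control, with 0 and 1 (MAPK3, which encodes ERK1) at an unadjusted p under 0.05. MAPK3 was lower in si-BAP1 than in si-MBD5 (log2 -0.20, limma adjusted p = 0.0486).

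**Figure D4:**
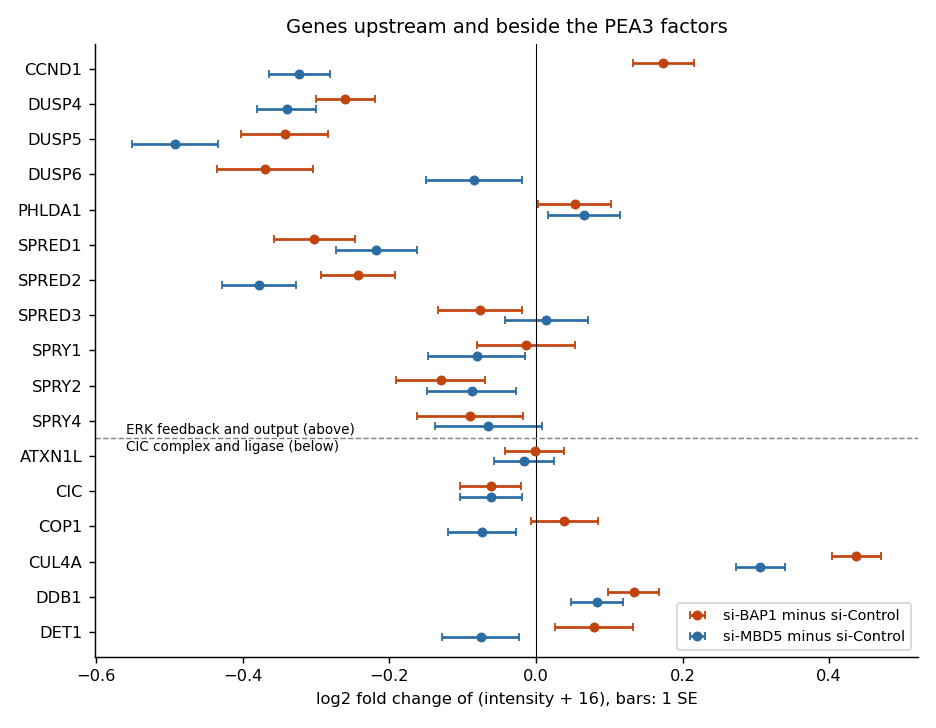
Log2 fold change of (intensity + 16) against si-Control for 11 genes of ERK feedback and output and 6 of the CIC complex and PEA3 ubiquitin ligase, si-BAP1 in orange and si-MBD5 in blue; points are estimates from 3 arrays per group and bars 1 SE. DUSP4, DUSP5, SPRED1 and SPRED2 lie left of 0 in both knockdowns, DUSP6 only clearly so in si-BAP1, and CUL4A lies right of 0 in both.

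The SRF list, which holds the partner of the ternary complex factors and its immediate early targets, had 1 of 11 higher and 1 lower in si-BAP1, and 1 higher and 2 lower in si-MBD5, where 23.5% and 16.3% of all genes passed in either direction. These counts are near those shares and are no result about the list. SRF itself had log2 0.10 and 0.0091 and did not pass. MCL1, a survival factor of the BCL2 family, fell in both (log2 -0.24 and -0.36), and NR4A1, an orphan nuclear receptor, rose in si-BAP1 (0.15). EGR1, a zinc finger factor, rose in si-MBD5 (0.16), and the AP-1 subunit JUNB fell there (-0.15). FOS, the textbook target of ELK1 and SRF, had 0.064 and 0.050 (limma adjusted p = 0.599 and 0.704). Of protease genes and partners known as ETS targets, 2 of 6 fell in each knockdown, where 11.1% of all genes were lower in si-BAP1 and 8.99% in si-MBD5: the urokinase receptor PLAUR (log2 -0.32 and -0.27) and the protease inhibitor TIMP1 (-0.18 and -0.16). In the epithelial list 1 of 7 fell in si-BAP1, near the 11.1% of all genes, the tight junction gene CLDN4 (log2 -0.33, limma adjusted p = 0.0018), and 0 passed in si-MBD5, where 0 had an unadjusted p under 0.05.

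The label of the line was checked against biliary markers. The keratins KRT7, KRT8 and KRT18 stood at the 96.2nd, 94.2nd and 98.0th percentile, and SOX9, a biliary transcription factor, at the 51.9th. KRT19, EPCAM and CFTR were below the filter, at the 34.2nd, 15.3rd and 20.1st percentile, as was EHF. KRT8 rose in si-BAP1 (log2 0.31) and KRT7 fell in both knockdowns (-0.15 and -0.19). Of 16 markers of hepatocytes, immune, endothelial and fibroblast cells, 7 were above the filter and 0 passed in limma, with 0 at an unadjusted p under 0.05 in each comparison. The summed fibroblast markers were 63.7 to 66.4 in si-BAP1, 55.5 to 60.2 in si-MBD5 and 54.5 to 58.7 in si-Control. The higher si-BAP1 sum came from DCN, below the filter, with means of 24.7, 18.9 and 16.9 in that order. COL1A1, the fibroblast marker above the filter, averaged 29.9, 29.2 and 29.4. The part of these markers in the results was not tested. PTPRC and LUM, which define blood and stromal cells, were the lowest of these markers, at the 3.74th and 0.617th percentile. CD68, APOA1 and VWF, markers of immune, hepatocyte and endothelial cells, stood above SOX9, at the 61.4th, 54.5th and 53.5th. TTR and PECAM1 stood near SOX9, at the 51.6th and 51.0th.

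Genes with the profile closest to a member were found by the root mean square (RMS) difference of log2 values over the 9 arrays, each gene centred on its mean. For ELK3 these were RDH10, a retinol dehydrogenase (RMS 0.10), and SERPINE2, a protease inhibitor (0.13), against an RMS of 0.46 for the profile of ELK3 itself. For ETV5 they were TNNT1, a troponin (0.040), and IER3, an early response gene (0.053), and for ETV1 WDFY1 (0.052) and the syntaxin STX6 (0.056). RDH10 had log2 -0.98 in si-BAP1 and -0.47 in si-MBD5, and TNNT1 had -0.70 and -0.45. For the members that moved less, the closest were KIAA0513 and OPTN for ETV4, NAMPT and RAB5IF for ETS1, PRSS21 and ARHGEF10 for ELK1, and RIBC2 and RBM8A for ELK4, at RMS 0.015 to 0.033.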

How the data were processed

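RNA of 9 samples (3 si-BAP1, 3 si-MBD5 and 3 si-Control) was read on Affymetrix arrays, 1 array a sample. The deposited values are linear intensities made by the authors with MAS5, per the submitters' processing notes; version and scaling are not given in the sources used here. Every column was matched to 1 sample by its title. The deposited intensities were turned into log2(intensity + 16). Probe sets were named through the platform's annotation, and those with 1 symbol and a mean intensity above the 40th percentile (25.5) were kept. The brightest probe set stood for a gene. One limma model (3.58.1, R 4.3.3; moderated with an intensity trend, 6 residual degrees of freedom) was fitted to all 9 arrays and 12434 genes, and a second to 29584 probe sets, with Benjamini-Hochberg adjustment. The fit was tested on simulated data. Figures used matplotlib 3.10.9. Promoter windows are from RefSeq.

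The members and the gene lists were chosen with earlier results of these data known. The genes named are all members, other ETS genes that passed, up to 4 passing genes per list and comparison by size of change, and the 2 genes nearest in profile to each member that passed. Outside this rule, ELF2, GABPA, ERF, ERG, ETV7, SRF, FOS, CIC and COP1 were named after their values were seen. So were SPRY1, SPRY2, SPRY4, SPRED3 and PHLDA1, and ELF5, FLI1, SPI1, SPIB and SPIC, the other ETS genes below the filter. KRT7, KRT8, KRT18, KRT19, SOX9, EPCAM, CFTR, PTPRC, LUM and ACTB were named as markers or quality checks. So were CD68, APOA1, VWF, TTR, PECAM1, DCN, COL1A1 and GAPDH, after their values were seen. Same-numbered samples did not deviate together (r -0.43 to 0.48 over 9 pairs), so numbers were not taken as pairs. Alternatives were other added constants, filters, scalings, probe set rules, a replicate block and leaving out each array. The number of arrays limits the precision: the median SE of a log2 fold change was 0.051.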

Additional observations from a re-analysis of the deposited data

How the results depend on the processing

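Of the single-gene values under other settings, 447 kept direction and side of the threshold, 20 lost the threshold, 3 gained it and 7 changed sign. ELK4 passed in si-MBD5 in every setting. ELK3 in si-BAP1 ran from log2 -1.331 to -0.6944 over other settings and from -1.159 to -1.012 over fits without 1 array. Counts of members called below include ELK3 and ETV5 where they could be tested, and nothing is read from them. The cause of the changes below was not tested. With the mean of probe sets, ETS2 was 0.1878 in si-BAP1 against si-Control and 0.2275 in si-MBD5 against si-Control, both called. The same setting ended the calls in si-MBD5 against si-Control of ETV1 (limma adjusted p = 0.0526), ETV4 (0.07) and ETS1 (0.208), gained ELF3 there (0.0432) and ETV4 in si-BAP1 against si-MBD5 (0.0365), and left 6 members called in si-MBD5 against si-Control (3 higher, 3 lower), and 1 other ETS gene (ETV7) was called in si-BAP1 against si-Control and 1 in si-BAP1 against si-MBD5. With median centring, ETS2 was -0.005121 in si-MBD5 against si-Control. Without _x_at and _s_at probe sets, 4 members passed in si-MBD5 against si-Control and 1 in si-BAP1 against si-MBD5. Only 6 members could be tested there (ELK1, ELK3 and ELF3 have no value). ETV7 was the 1 other ETS gene called in that setting, in si-BAP1 against si-Control and against si-MBD5. Its probe set passed the filter only through the si-BAP1 arrays.

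Leaving out 1 array at a time, ETS2 ran from -0.02383 to 0.003942 in si-BAP1 against si-Control, from -0.03346 to 0.04847 in si-MBD5 against si-Control, and from -0.05869 to 0.02324 in si-BAP1 against si-MBD5; ELK4 in si-BAP1 against si-MBD5 ran from -0.0319 to 0.000824. Over the same fits 0 to 1 other ETS genes were called in si-BAP1 against si-Control (ELF2, without si-BAP1 replicate 1, si-MBD5 replicate 3 or si-Control replicate 3) and 0 to 1 in si-MBD5 against si-Control (ERG without si-MBD5 replicate 2, GABPA without si-MBD5 replicate 3). There 1 to 8 genes of the pathway lists passed in si-BAP1 against si-MBD5 (1 without si-BAP1 replicate 3, 3 without si-BAP1 replicate 1) and 6 to 12 in si-MBD5 against si-Control (6 without si-Control replicate 2).

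The replicate number as a block (replicate block) ended 1 member call, ETS1 in si-MBD5 (log2 -0.1644, limma adjusted p = 0.0705), and left similar numbers of genes called: 2851 for si-BAP1 and 1866 for si-MBD5, each against si-Control, and 1115 between the knockdowns. Over all genes, 1266 were called in si-MBD5 against si-Control without si-Control replicate 2 (2025 with it), and in si-BAP1 against si-MBD5 759 without si-BAP1 replicate 3 and 721 without si-MBD5 replicate 1 (1240 with all). Quantile normalization put 45.9% of the calls in si-BAP1 against si-MBD5 higher, against 57.7%. EHF was the 1 member with no probe set above the 40th percentile.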

Other observations

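ETV7 was looked at after its values were seen, because its probe sets differed. Its brightest probe set did not pass in si-BAP1 against si-Control (log2 -0.011, limma adjusted p = 0.938). On 11762172_x_at the means were 63.1 in si-BAP1, 43.3 in si-MBD5 and 44.5 in si-Control, all above the filter level. There si-BAP1 exceeded si-Control by log2 0.38 (limma adjusted p = 0.0075 over all probe sets). Neither 11756375_x_at nor 11750454_a_at passed in any comparison. The dimmer 11761671_a_at read 33.1, 38.9 and 34.2 in si-BAP1 and 18.8, 22.1 and 20.2 in si-MBD5, against 22.1, 25.1 and 21.7 in si-Control. Every si-BAP1 array exceeded the others, by log2 0.40 over si-Control. As this probe set passed the filter only through its si-BAP1 arrays, that difference is given with no test. In si-MBD5 it did not pass against si-Control (-0.10, limma adjusted p = 0.319). In ETV5, the log2 ratio of 11748612_a_at to the brightest probe set was -1.52 to -1.25 in si-BAP1, -1.73 to -1.53 in si-MBD5 and -1.95 to -1.85 in si-Control. ETV5 was selected on its fall in si-BAP1 cells against the same control arrays, so these ratios are given with no test (n = 3 each).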
